A study of Homo sapiens with 16 samples.

Results

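The comparison described here asks where the passage from an epithelial to a mesenchymal state differed between cells carrying a guide against EED and cells carrying a guide against KMT2D. All cells were HMLER, a line of human mammary epithelial cells transformed with introduced genes that include oncogenic HRAS, and all derived from cells named C1, which the study describes as stably epithelial. The groups were C1-sgEED-Epi and C1-sgEED-Mes, with the genotype EED-KO, and C1-sgKMT2D-Epi and C1-sgKMT2D-Mes, with the genotype KMT2D-KO. The study describes both Epi groups as plastic epithelial states and both Mes groups as distinct mesenchymal states. Each held 2 libraries, so the comparison used 8 of the 16 libraries of the series. The C1 prefix is left out below. Every group was grown in the same medium with insulin, EGF and hydrocortisone, and RNA came directly from cultures or from sorted cells. The labels do not say which groups were sorted, or whether the epithelial and mesenchymal cells of 1 guide came from 1 clone. Nor do they say that the 2 libraries of a group came from separate cultures. The p-values then rest on the spread between the 2 libraries of a group, which may be technical. This spread was pooled over all 16 libraries of the series, so groups outside the comparison also enter it.

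EED is a core subunit of Polycomb repressive complex 2 (PRC2), which places the repressive mark H3K27me3 on histone H3 at silent developmental genes. KMT2D is a methyltransferase of the COMPASS family that marks active enhancers with H3K4me1. In an epithelial to mesenchymal transition, cells lose junctions and keratins, gain matrix and contractile proteins, and come under repressors of the ZEB, SNAI and TWIST families. The quantity tested was the difference of 2 differences, (sgEED-Mes minus sgEED-Epi) minus (sgKMT2D-Mes minus sgKMT2D-Epi), on the log2 scale, and is called the interaction. A positive interaction says that a gene's change towards the mesenchymal state was more positive with the EED guide. "Rose" and "fell" refer to the mesenchymal against the epithelial libraries of 1 guide.

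Total counts of the 8 libraries ran from 23717832 (sgKMT2D-Mes replicate 2) to 29249161 (sgEED-Mes replicate 1). Mitochondrial transcripts took 7.01% to 11.6% of the counts. Across genes, the 2 libraries of a group correlated with r of 0.988 to 0.994. In C2-Mes, a group outside the comparison that also enters the pooled spread, r was 0.967. In a principal component analysis of the 8 libraries the first component (56.5% of the variance) separated the states and the second (26.6%) the guides. Levels are given as CPM, counts scaled to library size with TMM factors, with the value of each library or as mean ± SD (n = 2). Calls were made over 18285 genes by edgeR's quasi-likelihood test, at an adjusted p (Benjamini-Hochberg) under 0.05. Interactions are given as log2 values ± SE. The SE is the absolute log2 value divided by the square root of the F statistic of that test. For genes near 0 in a group, values moved by more than this SE under some alternatives.

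The transcripts of the edited genes were examined first. EED stood at 26.7 and 29.6 CPM in the sgEED-Epi libraries, 5.22 and 5.50 in sgEED-Mes, 38.0 and 38.3 in sgKMT2D-Epi and 22.0 and 23.9 in sgKMT2D-Mes. It was lowest in the sgEED-Mes libraries, while sgEED-Epi lay between the 2 sgKMT2D groups. It fell under both guides, by 2.39 with sgEED and by 0.73 with sgKMT2D on the log2 scale, and its interaction was -1.66 ± 0.21 (adjusted p = 8.59e-05). KMT2D stood at 119 and 125 CPM in the sgEED-Epi libraries, 86.3 and 81.0 in sgEED-Mes, 124 and 127 in sgKMT2D-Epi and 86.6 and 76.8 in sgKMT2D-Mes. Its transcript fell by 0.54 with sgEED and by 0.62 with sgKMT2D on the log2 scale, with an interaction of 0.08 ± 0.25 (adjusted p = 0.88). In each state its sgKMT2D and sgEED libraries overlapped. Guides alter the coding sequence and need not lower the transcript, so these levels check the labels only in part.

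Of the genes that mark the 2 states, EPCAM, FN1 and VIM moved in the same direction under both guides. Other markers, described below, had called interactions, among them CDH1, DSP, TP63, KRT5, KRT14, PRRX1 and ZEB2. Of these, DSP was low in the sgKMT2D-Mes libraries alone. EPCAM, an epithelial surface adhesion protein, went from 121 ± 16.1 to 0.952 ± 0.0389 CPM with sgEED and from 139.9 ± 10.3 to 0.855 ± 0.0332 with sgKMT2D. FN1, the matrix protein fibronectin, went from 16106 ± 1246 to 96794 ± 1711 CPM with sgEED and from 21075 ± 377 to 136150 ± 7753 with sgKMT2D, and VIM, the mesenchymal intermediate filament vimentin, from 1209 ± 137 to 4155 ± 413 CPM with sgEED and from 1541 ± 0.911 to 3862 ± 151 with sgKMT2D. None of these 3 genes passed the test of the interaction: the values were 0.37 ± 0.31 (adjusted p = 0.461), -0.10 ± 0.17 (adjusted p = 0.727) and 0.46 ± 0.20 (adjusted p = 0.131). VIM was called with offsets for GC content and gene length (0.51, adjusted p = 0.0257). Over all tested genes, which are not independent replicates, the changes of the 2 transitions correlated with a Pearson r of 0.589 and a Spearman rho of 0.578, with no library shared between them. Both transitions were called for 4785 genes, and 4393 of these (91.8%) moved in the same direction.

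Against this common course, 3674 genes (20.1% of those tested) had a called interaction, 1689 higher (9.24%) and 1985 lower (10.9%) with sgEED. At an unadjusted p under 0.05 there were 5906. The sgEED transition itself had calls for 36.5% of genes and the sgKMT2D transition for 50.8%. Of the 3674 genes, 392 moved in opposite directions: 194 rose with sgEED and fell with sgKMT2D, and 198 did the reverse. Another 1024 moved the same way by unequal amounts. Of these, 446 rose more and 331 fell more with sgKMT2D, while 118 rose more and 129 fell more with sgEED. In 2208 genes only 1 transition was called. It was that of sgKMT2D for 931 rising and 697 falling genes, and that of sgEED for 318 rising and 262 falling genes. The remaining 50 genes had neither transition called. The median size of a called interaction was 1.51 on the log2 scale, and it was over 3 in 699 genes. Without sgKMT2D-Epi replicate 1 there were 1051 higher and 1242 lower, of which 2263 were among the 3674, with 667 genes moving the same way and 1342 with 1 transition called. Without sgKMT2D-Mes replicate 1 there were 1118 higher and 1307 lower, with 1454 genes with 1 transition called. Without sgKMT2D-Mes replicate 2 there were 1102 higher, with 674 moving the same way. Without sgEED-Epi replicate 2 the genes that fell with sgEED and rose with sgKMT2D numbered 119.

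**Figure D1:**
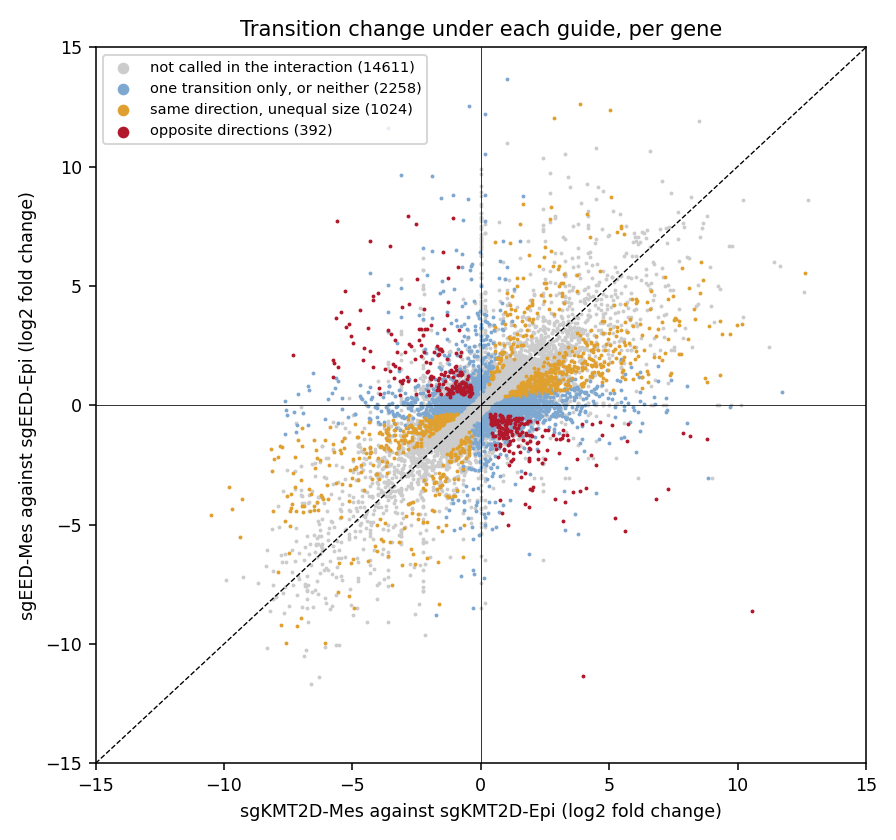
Log2 change of each tested gene from the epithelial to the mesenchymal libraries with the KMT2D guide (horizontal) and with the EED guide (vertical). The dashed line marks equal change. The 14611 genes with no called interaction are in grey, and 2675 of them had an absolute interaction of at least 1. The 392 genes in red, with both transitions called in opposite directions, lie at the upper left and the lower right.

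The interaction is also the difference between the guides in the mesenchymal libraries minus that in the epithelial libraries. Of the 3674 genes, 2660 differed between the guides in the mesenchymal state and 1535 in the epithelial state, with 770 in both and 249 in neither. Over all genes, 31.1% were called between the mesenchymal groups and 17.5% between the epithelial groups. Between the epithelial groups 2359 genes were higher and 843 lower in sgEED-Epi, which makes 73.7% of the calls higher. A correction of each library for GC content and gene length gave 47.5%. Between the mesenchymal groups the share of calls higher in sgEED-Mes was 56.8%, and 45.6% with that correction. For the interaction the share was 46% and 51.8%. The counts between the epithelial groups were 1401 higher and 384 lower without sgEED-Epi replicate 2, 1217 and 338 without sgKMT2D-Epi replicate 1, and 1394 and 473 without sgKMT2D-Epi replicate 2, with 1329 lower without sgEED-Epi replicate 1. Between the mesenchymal groups 3231 genes were higher and 2455 lower in sgEED-Mes. These were 2114 and 1455 without sgKMT2D-Mes replicate 1, 2030 and 1526 without sgKMT2D-Mes replicate 2, and 1526 lower without sgEED-Mes replicate 2.

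Genes with a called interaction were unevenly spread over the chromosomes, and 3 stretches, chosen after their values were seen, stood out. On chromosome 13, 144 genes were higher and 7 lower of 337 tested (44.8% called), with a median interaction of 1.04 among its 220 genes at 5 CPM or more. On chromosome 16 before 40 Mb, 6 were higher and 216 lower of 449 (49.4%), with a median of -0.97. On chromosome 20, 158 were higher and 13 lower of 481 (35.6%), with a median of 0.70. On the other chromosomes, with the rest of chromosome 16 left out too, 18.5% of genes were called and the median was 0.05. In each stretch 1 group stood apart. Against the mean of the unedited C1 libraries, the median gene of chromosome 13 stood at -0.57 and -0.68 in the 2 sgEED-Epi libraries and between 0.06 and 0.37 in the other 6. For chromosome 16 before 40 Mb the median was -1.12 and -1.03 in sgKMT2D-Epi and between -0.36 and -0.09 elsewhere. For chromosome 20 it was -0.60 and -0.64 in sgKMT2D-Mes and between -0.07 and 0.08 elsewhere. The 20 mitochondrial genes at 5 CPM or more, which lie outside these counts, had a median interaction of 0.91, from 0.55 without sgEED-Mes replicate 2 to 1.26 without sgEED-Mes replicate 1. DNA was not measured, and a part of copy number in these shifts was not tested. Below, members described singly that lie on these stretches are named as such. Among called list members counted below, PPL, KLF5, COL4A2, MYL9, EPSTI1, BMP2, ZIC2 and EFNB2 also lie on them. Without the genes of these 3 stretches, 1381 genes were higher and 1749 lower in the interaction. Chromosome 19 had 25 genes higher and 197 lower, with a median of -0.35 that was -0.06 after the correction for GC content and length.

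**Figure D2:**
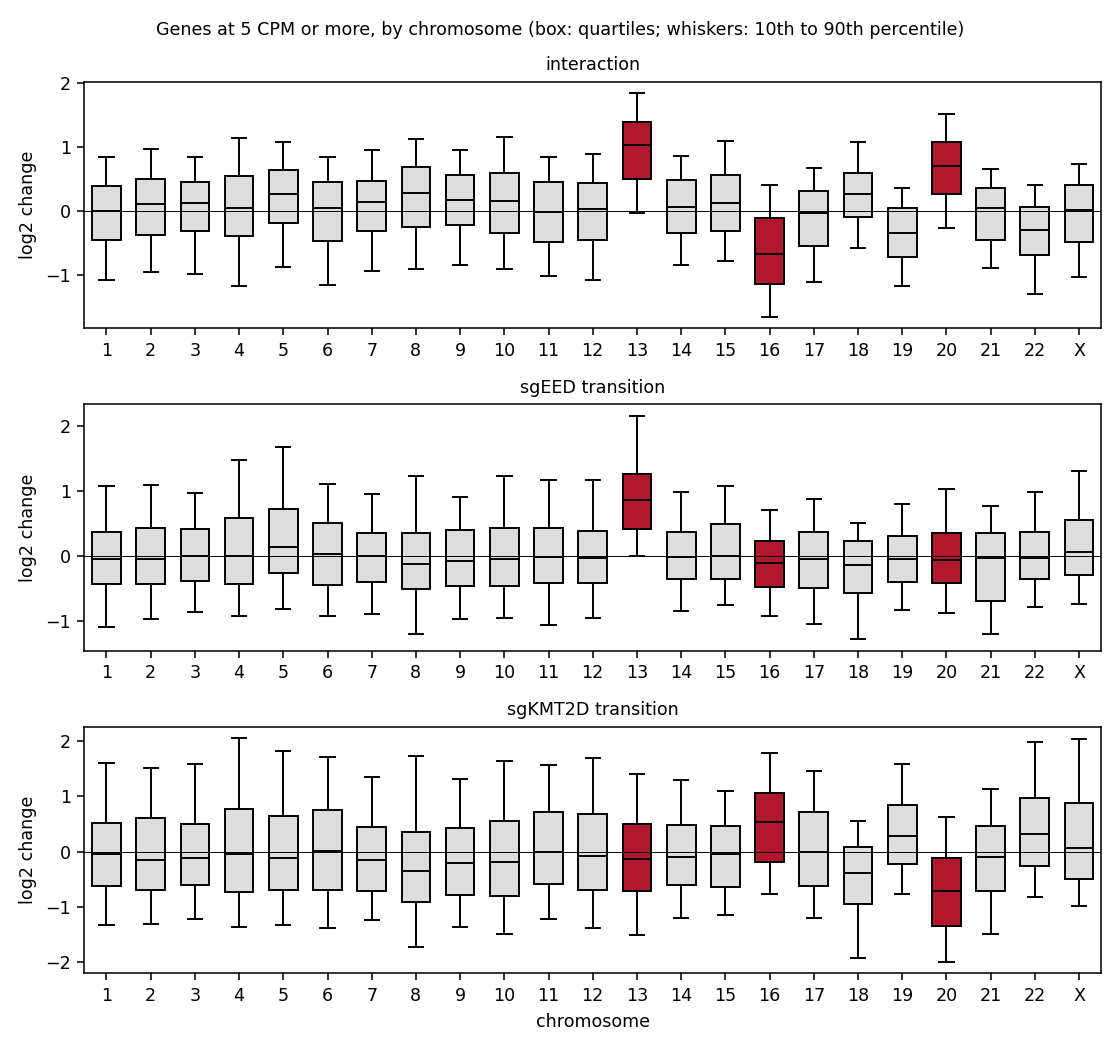
Interaction and the 2 transition changes (log2) by chromosome, for genes at 5 CPM or more in at least 1 of the 4 groups; boxes span the quartiles, and whiskers run from the 10th to the 90th percentile. Chromosomes 13 and 20 lie above and chromosome 16 below the rest in the interaction; chromosome 13 is shifted in the sgEED transition, chromosomes 16 and 20 in the sgKMT2D transition.

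The genes that moved in opposite directions included matrix and signalling genes with large changes. TGFBI (ENSG00000120708, chromosome 5, 136028895 to 136063818) encodes a secreted protein that binds collagen and integrins and is induced by TGF-beta. It stood at 534 and 629 CPM in the sgEED-Epi libraries, 3331 and 2733 in sgEED-Mes, 576 and 610.3 in sgKMT2D-Epi and 26.9 and 23.3 in sgKMT2D-Mes. The epithelial groups overlapped, while the sgEED-Mes libraries were the highest of the 8 and the sgKMT2D-Mes libraries the lowest. Its interaction was 6.94 ± 0.24 (adjusted p = 1.75e-09). EDIL3 (ENSG00000164176, chromosome 5, 83940554 to 84384793), a secreted integrin ligand, stood at 12.6 and 6.42 CPM in the sgEED-Epi libraries, 219 and 271 in sgEED-Mes, 29.6 and 24.8 in sgKMT2D-Epi and 1.92 and 1.49 in sgKMT2D-Mes. The 2 mesenchymal groups lay on either side of both epithelial groups, and the interaction was 8.68 ± 0.73 (adjusted p = 3.41e-06). MMP13, a collagenase, stood at 1.26 and 1.05 CPM in the sgEED-Epi libraries, 21.6 and 22.5 in sgEED-Mes, 1.88 and 1.43 in sgKMT2D-Epi and 0.167 and 0.306 in sgKMT2D-Mes, with an interaction of 7.04 ± 0.57 (adjusted p = 2.14e-06). PLPP4, a lipid phosphatase, went from 3.52 ± 0.339 to 20.4 ± 0.850 CPM with sgEED and from 1.86 ± 0.180 to 0.362 ± 0.0792 with sgKMT2D, with an interaction of 4.87 ± 0.44 (adjusted p = 8.5e-06).

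Further genes that rose with sgEED and fell with sgKMT2D were low in 3 of the 4 groups. DPYSL4, of the collapsin response mediator family that regulates the cytoskeleton, stood at 0.267 and 0.421 CPM in the sgEED-Epi libraries, 9.14 and 5.63 in sgEED-Mes, 1.52 and 1.83 in sgKMT2D-Epi and 0.0837 and 0.0875 in sgKMT2D-Mes, with an interaction of 8.61 ± 0.53 (adjusted p = 1.74e-07). ACTBL2, an actin-like protein, went from 0.461 ± 0.156 to 8.06 ± 1.49 CPM with sgEED and from 0.399 ± 0.112 to 0.0418 ± 0.0592 with sgKMT2D, and PDE1C, a phosphodiesterase that degrades cyclic nucleotides, from 0.186 ± 0.114 to 7.29 ± 0.664 CPM with sgEED and from 0.261 ± 0.0315 to 0.0438 ± 0.0619 with sgKMT2D. GNAO1, the alpha subunit of the G protein Go, went from 1.38 ± 0.178 to 7.74 ± 1.05 CPM with sgEED and from 0.170 ± 0.0406 to 0.0219 ± 0.0309 with sgKMT2D. DCLK1, a microtubule-associated kinase encoded on chromosome 13, went from 1.19 ± 0.146 to 10.8 ± 0.746 CPM with sgEED and from 0.709 ± 0.101 to 0.130 ± 0.125 with sgKMT2D. Their interactions were 7.19 ± 0.96 (adjusted p = 0.000275), 7.76 ± 1.02 (adjusted p = 0.000168), 5.20 ± 0.81 (adjusted p = 0.000501) and 5.60 ± 0.68 (adjusted p = 6.14e-05). In each of these 5 genes the fall with sgKMT2D started from less than 2 CPM, so the rise with sgEED was the larger change in CPM.

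In the other direction, DAPK1 (ENSG00000196730, chromosome 9, 87497228 to 87708633), a kinase that promotes cell death, stood at 2.36 and 2.56 CPM in the sgEED-Epi libraries, 0.109 and 0 in sgEED-Mes, 1.21 and 1.67 in sgKMT2D-Epi and 70.2 and 70.6 in sgKMT2D-Mes. The 4 epithelial libraries lay close together, the sgEED-Mes libraries below them and the sgKMT2D-Mes libraries far above. Its interaction was -10.87 ± 0.49 (adjusted p = 1.84e-08). ANKRD22, an ankyrin repeat protein, stood at 2.25 and 2.14 CPM in the sgEED-Epi libraries, 0.0726 and 0.0880 in sgEED-Mes, 0.532 and 0.279 in sgKMT2D-Epi and 16.4 and 14.6 in sgKMT2D-Mes, with an interaction of -9.92 ± 0.50 (adjusted p = 4.54e-08). TRIML2, a protein of the TRIM family, went from 5.50 ± 0.457 to 0.377 ± 0.276 CPM with sgEED and from 2.55 ± 0.00177 to 18.98 ± 0.758 with sgKMT2D, C2CD4A from 1.74 ± 0.468 to 0.139 ± 0.00922 CPM with sgEED and from 0.684 ± 0.216 to 10.1 ± 1.11 with sgKMT2D, and PCDHGA3, a clustered protocadherin whose exons lie among near-identical neighbours, from 0.780 ± 0.187 to 0.168 ± 0.136 CPM with sgEED and from 0.502 ± 0.360 to 6.64 ± 0.878 with sgKMT2D. SCN2B, a sodium channel beta subunit, went from 0.985 ± 0.0464 to 0.0622 ± 0.0366 CPM with sgEED and from 0.0598 ± 0.0845 to 6.97 ± 0.443 with sgKMT2D. Their interactions were -6.80 ± 0.50 (adjusted p = 9.06e-07), -7.48 ± 0.53 (adjusted p = 1.23e-06), -5.99 ± 0.75 (adjusted p = 8.13e-05) and -10.76 ± 0.93 (adjusted p = 6.32e-06).

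A second pattern in this direction was a start from unequal epithelial levels. EPDR1, an ependymin-related secreted protein, stood at 9.37 and 9.93 CPM in the sgEED-Epi libraries, 0.0363 and 0 in sgEED-Mes, 0 and 0 in sgKMT2D-Epi and 7.95 and 7.13 in sgKMT2D-Mes. It was thus present in the sgEED-Epi and sgKMT2D-Mes libraries, and at 0 or 1 count in the other 4 libraries. FBXL7, an F-box protein of a ubiquitin ligase, stood at 12.4 and 13.3 CPM in the sgEED-Epi libraries, 0 and 0 in sgEED-Mes, 0.106 and 0.319 in sgKMT2D-Epi and 3.26 and 3.50 in sgKMT2D-Mes. TFPI2, an inhibitor of serine proteases, went from 33.4 ± 3.21 to 8.82 ± 3.03 CPM with sgEED and from 1.86 ± 0.0206 to 8.70 ± 0.0544 with sgKMT2D, so that the libraries of the 2 mesenchymal groups overlapped and those of the epithelial groups did not. GUCY1A1, a subunit of the nitric oxide receptor guanylate cyclase, went from 13.7 ± 1.82 to 1.08 ± 0.218 CPM with sgEED and from 0.0177 ± 0.0251 to 0.282 ± 0.221 with sgKMT2D. The interactions of TFPI2 and GUCY1A1 were -4.15 ± 0.67 (adjusted p = 0.000734) and -7.23 ± 0.98 (adjusted p = 0.000161). Against a floor of 3 counts per library for a group at 0, EPDR1 was at least 66.8-fold higher in sgKMT2D-Mes than in sgKMT2D-Epi, and FBXL7 at least 107-fold lower in sgEED-Mes than in sgEED-Epi.

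**Figure D3:**
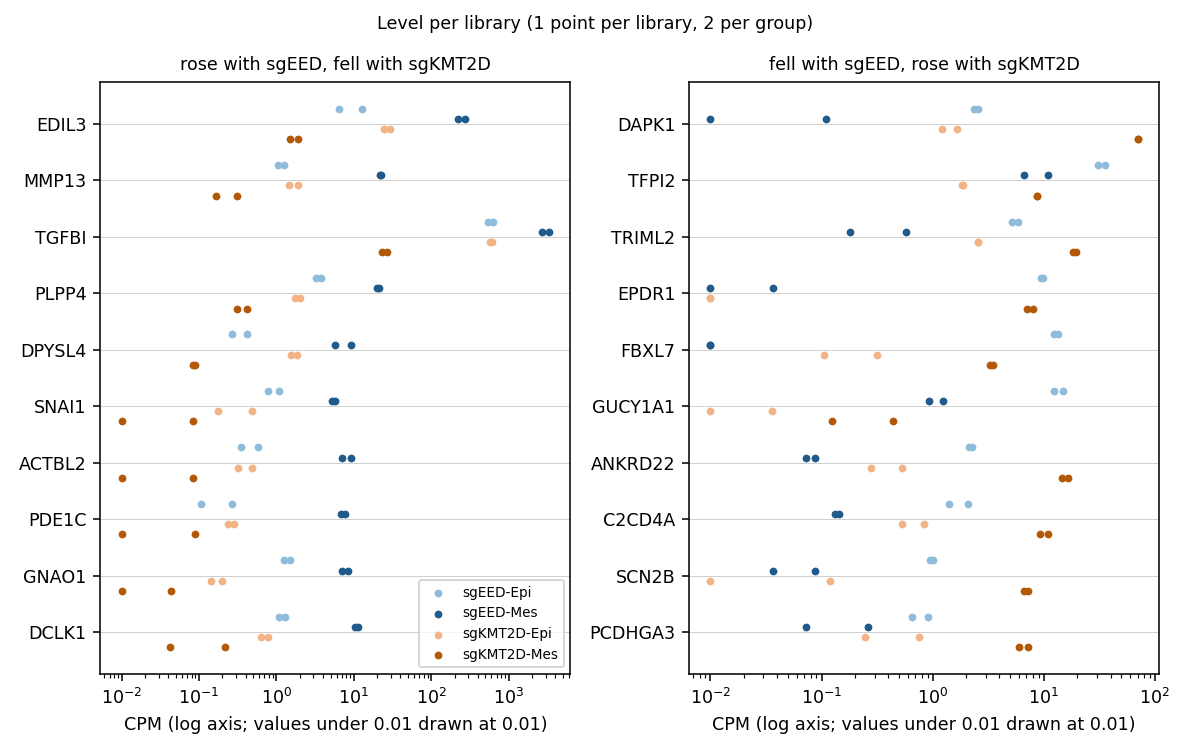
CPM of the genes that lead each opposite pattern, 1 point per library on a log axis, with values under 0.01 drawn at 0.01. On the left the dark blue sgEED-Mes points lie right of all others and the dark orange sgKMT2D-Mes points left; on the right the sgKMT2D-Mes points lie right of the sgKMT2D-Epi points and the sgEED-Mes points left of the sgEED-Epi points.

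The interferon-stimulated genes were the list with the greatest share of calls. These genes encode antiviral proteins and are switched on when interferon receptors activate a complex of STAT proteins and IRF9 that binds a DNA element named ISRE. Of 45 measured members 36 were called lower in the interaction (10.9% of all genes were called lower) and 0 higher by edgeR, with 40 lower and 0 higher at an unadjusted p under 0.05 and 0 higher by DESeq2. The median interaction was -2.02, against 0 over all genes. With sgKMT2D 41 members rose (median log2 change 2.71, where 26.8% of all genes rose). With sgEED 25 rose and 3 fell (median 0.83, where 19.2% of all genes rose and 17.3% fell). The remaining 17 members did not pass the test with sgEED. Leaving out any 1 of the 8 libraries left 32 to 36 members called lower. In the mesenchymal state 38 members were lower in sgEED-Mes than in sgKMT2D-Mes (13.4% of all genes were). In the epithelial state 17 were higher in sgEED-Epi than in sgKMT2D-Epi (12.9% of all genes were) and 2 lower (4.61%).

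The ISRE core was searched in the promoters of the members. Of those with a match, 3 promoters of members with large interactions are printed. The 170 bases before the start of IFI6 (chr1:27672193-27672362, minus strand), IFI27 (chr14:94110566-94110735, plus strand) and IFIT1 (chr10:89392453-89392622, plus strand) are shown with each match to 2 copies of GAAA separated by any 2 bases, on either strand, in capitals (RefSeq, GRCh38.p14). The matches began 156, 115 and 93 bases before the start in IFI6, 108 and 95 in IFI27, and 116 and 103 in IFIT1.
IFI6: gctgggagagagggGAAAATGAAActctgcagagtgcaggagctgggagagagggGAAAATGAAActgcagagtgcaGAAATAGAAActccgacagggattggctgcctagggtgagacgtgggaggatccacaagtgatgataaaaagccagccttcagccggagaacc
IFI27: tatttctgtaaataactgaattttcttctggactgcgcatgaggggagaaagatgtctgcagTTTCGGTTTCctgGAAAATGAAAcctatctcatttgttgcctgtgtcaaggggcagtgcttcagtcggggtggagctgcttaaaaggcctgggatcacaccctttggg
IFIT1: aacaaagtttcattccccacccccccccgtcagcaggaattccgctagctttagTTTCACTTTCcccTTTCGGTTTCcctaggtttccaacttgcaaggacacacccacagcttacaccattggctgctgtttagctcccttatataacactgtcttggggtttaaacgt
In windows of 300 bases (250 before to 50 after the start), 23 of 34 interferon-stimulated genes with a promoter in the table (67.6%) held the motif. Among 12269 tested genes with a promoter the share was 2.9%, and among all 27305 promoters it was 3.65%. OAS1, XAF1 and SAMD9L, with interactions of -5.36, -4.27 and -3.28, held no match in this window. The share was 70.4% in the called members (19 of 27) and 57.1% in those not called (4 of 7). Among all genes lower in the interaction 4.79% held it, and among those higher 2.74%. A match is a run of letters and does not show binding.

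IFI6, a mitochondrial antiviral protein, stood at 2.32 and 2.98 CPM in the sgEED-Epi libraries, 8.60 and 4.62 in sgEED-Mes, 1.03 and 0.677 in sgKMT2D-Epi and 85.6 and 70.9 in sgKMT2D-Mes. It rose under both guides, and the sgKMT2D-Mes libraries were the highest and the sgKMT2D-Epi libraries the lowest. Its interaction was -5.18 ± 0.49 (adjusted p = 8.5e-06). IFI27, a relative of IFI6, stood at 0.533 and 0.667 CPM in the sgEED-Epi libraries, 0.907 and 0.792 in sgEED-Mes, 0.213 and 0.199 in sgKMT2D-Epi and 7.36 and 6.43 in sgKMT2D-Mes, with an interaction of -4.53 ± 0.51 (adjusted p = 3.71e-05). Of the synthetases whose product activates RNase L, OAS1 stood at 2.13 and 2.702 CPM in the sgEED-Epi libraries, 1.63 and 1.32 in sgEED-Mes, 0.461 and 0.598 in sgKMT2D-Epi and 13.3 and 13.4 in sgKMT2D-Mes. It fell with sgEED and rose with sgKMT2D, with an interaction of -5.36 ± 0.37 (adjusted p = 5.2e-07). OAS2 rose under both guides and went from 0.288 ± 0.138 to 1.35 ± 0.294 CPM with sgEED and from 0.221 ± 0.0878 to 33.5 ± 4.13 with sgKMT2D. MX1, an antiviral GTPase, went from 1.52 ± 0.429 to 1.73 ± 0.327 CPM with sgEED and from 0.855 ± 0.256 to 17.7 ± 0.747 with sgKMT2D, and IFIT1, which binds viral RNA, from 1.86 ± 0.0992 to 8.41 ± 0.625 CPM with sgEED and from 1.01 ± 0.0226 to 42.1 ± 2.19 with sgKMT2D. The interactions of OAS2, MX1 and IFIT1 were -4.99 ± 0.72 (adjusted p = 0.000249), -4.19 ± 0.42 (adjusted p = 1.18e-05) and -3.20 ± 0.27 (adjusted p = 2.57e-06). IRF7, an interferon-induced activator, went from 3.64 ± 0.306 to 4.47 ± 1.84 CPM with sgEED and from 3.78 ± 0.285 to 13.1 ± 0.217 with sgKMT2D (interaction -1.49 ± 0.39, adjusted p = 0.0163, 0.00193 to 0.0791 over 15 alternatives, not called without sgEED-Epi replicate 2, sgEED-Mes replicate 2, sgKMT2D-Epi replicate 1 or either sgKMT2D-Mes library, with a value of -0.81 with offsets for GC content and length). The 9 members not called included CMPK2, HERC5, IFIT5 and IFITM3.

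Of 21 measured interferon sensors and receptors, 3 were called lower and 1 higher (19% called, 20.1% of all genes). The 4 calls were 2 without sgEED-Epi replicate 2, sgEED-Mes replicate 2, either sgKMT2D-Epi library or sgKMT2D-Mes replicate 1 and 7 without sgEED-Mes replicate 1. STING1, the adaptor of cytosolic DNA sensing, went from 17.7 ± 1.36 to 28.5 ± 6.23 CPM with sgEED and from 6.73 ± 0.900 to 51.1 ± 2.90 with sgKMT2D, with an interaction of -2.23 ± 0.36 (adjusted p = 0.000616). SOCS3, a feedback inhibitor of JAK kinases, was the member called higher and went from 11.6 ± 1.14 to 67.3 ± 22.1 CPM with sgEED and from 6.90 ± 0.941 to 7.83 ± 1.23 with sgKMT2D (interaction 2.35 ± 0.32, adjusted p = 0.000175). Antigen presentation genes had 9 of 23 members called lower, where 10.9% of all genes were (5 without sgKMT2D-Epi replicate 1), with a median of -0.65 (-0.41 without sgEED-Epi replicate 2 and -0.43 without sgEED-Mes replicate 2). NLRC5, the activator of MHC class I genes, went from 10.3 ± 0.492 to 11.5 ± 1.45 CPM with sgEED and from 2.77 ± 0.202 to 14.7 ± 0.135 with sgKMT2D, and PSMB8, a subunit of the immunoproteasome, from 35.4 ± 4.23 to 26.9 ± 3.93 CPM with sgEED and from 12.5 ± 0.899 to 29.9 ± 2.98 with sgKMT2D. HLA-DMA, a class II chaperone, went from 1.51 ± 0.197 to 4.04 ± 0.855 CPM with sgEED and from 0.489 ± 0.0404 to 6.47 ± 0.428 with sgKMT2D. Their interactions were -2.26 ± 0.27 (adjusted p = 5.62e-05), -1.65 ± 0.28 (adjusted p = 0.000831) and -2.30 ± 0.48 (adjusted p = 0.00395). For NLRC5 and PSMB8 the sgKMT2D-Epi libraries were the low group, and the other 3 groups lay close together. Chemokine and NF-kB target genes had 1 of 28 members called in the interaction (3.57% called, 20.1% of all genes), TNFAIP2 (interaction 2.27 ± 0.52, adjusted p = 0.00721), and 2 without sgEED-Mes replicate 1.

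Cell cycle and replication genes had 21 of 34 measured members called higher (9.24% of all genes were called higher) and 0 lower by edgeR. At an unadjusted p under 0.05 there were 26 higher and 0 lower, and DESeq2 called 0 lower. The median interaction was 1.16. With sgKMT2D 27 members fell (median log2 change -1.17, where 24% of all genes fell), while with sgEED 1 rose, 3 fell and 30 did not pass the test (median 0.07). Of the 21 called genes 6 lie on chromosome 20 (AURKA, TPX2, UBE2C, PCNA, MYBL2 and E2F1). Off the 3 stretches 15 of 27 members were called higher, with a median of 1.09. Leaving out any 1 library left 16 to 20 called.

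CCNA2, the cyclin of S phase and G2, stood at 87.3 and 91.5 CPM in the sgEED-Epi libraries, 89.2 and 141 in sgEED-Mes, 96.3 and 91.8 in sgKMT2D-Epi and 33.8 and 32.7 in sgKMT2D-Mes. The sgKMT2D-Mes libraries were the lowest and the other 6 lay between 87.3 and 141 CPM, with an interaction of 1.87 ± 0.25 (adjusted p = 0.000164). MKI67, a marker of dividing cells, went from 632 ± 377 to 793 ± 1.26 CPM with sgEED and from 1029 ± 66.8 to 413 ± 16.9 with sgKMT2D, and CDK1, the mitotic kinase, from 81.4 ± 8.96 to 104 ± 5.25 CPM with sgEED and from 107 ± 8.99 to 46.9 ± 0.284 with sgKMT2D. BUB1, a kinase of the spindle checkpoint, went from 90.4 ± 7.08 to 97.9 ± 20.7 CPM with sgEED and from 105 ± 7.24 to 35.9 ± 1.57 with sgKMT2D. The interactions were 1.64 ± 0.43 (adjusted p = 0.0156, 5.29e-11 to 0.0907 over 15 alternatives, not called without sgKMT2D-Epi replicate 1 or either sgKMT2D-Mes library or with the 8 compared libraries alone, with a value of 2.49 without sgEED-Epi replicate 1), 1.53 ± 0.26 (adjusted p = 0.000854, with a value of 0.97 with offsets for GC content and length) and 1.66 ± 0.22 (adjusted p = 0.00012). On chromosome 20, AURKA, a kinase of the spindle poles, went from 118 ± 14.6 to 121 ± 20.2 CPM with sgEED and from 159 ± 3.04 to 38.2 ± 1.44 with sgKMT2D and MYBL2, a transcription factor of mitotic genes, from 146 ± 19.4 to 157 ± 7.65 CPM with sgEED and from 194 ± 2.36 to 38.7 ± 1.54 with sgKMT2D. CCNE2, a cyclin of the entry into S phase, went from 11.5 ± 2.99 to 28.7 ± 1.65 CPM with sgEED and from 22.8 ± 3.11 to 13.9 ± 0.252 with sgKMT2D: it rose with sgEED and fell with sgKMT2D (interaction 2.04 ± 0.40, adjusted p = 0.00262). Among cyclin-dependent kinase inhibitors 2 of 8 were called higher (25% called, 20.1% of all genes). One was CDKN2B, which holds CDK4 and CDK6 and is induced by TGF-beta. It stood at 49.2 and 50.7 CPM in the sgEED-Epi libraries, 108 and 129 in sgEED-Mes, 114 and 107 in sgKMT2D-Epi and 45.3 and 46.0 in sgKMT2D-Mes, rose with sgEED and fell with sgKMT2D (interaction 2.52 ± 0.28, adjusted p = 2.91e-05). The subunits of the replicative helicase (MCM2 to MCM7) did not pass the test. A difference in the share of dividing cells and one in transcript level per cell cannot be told apart in bulk RNA.

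**Figure D4:**
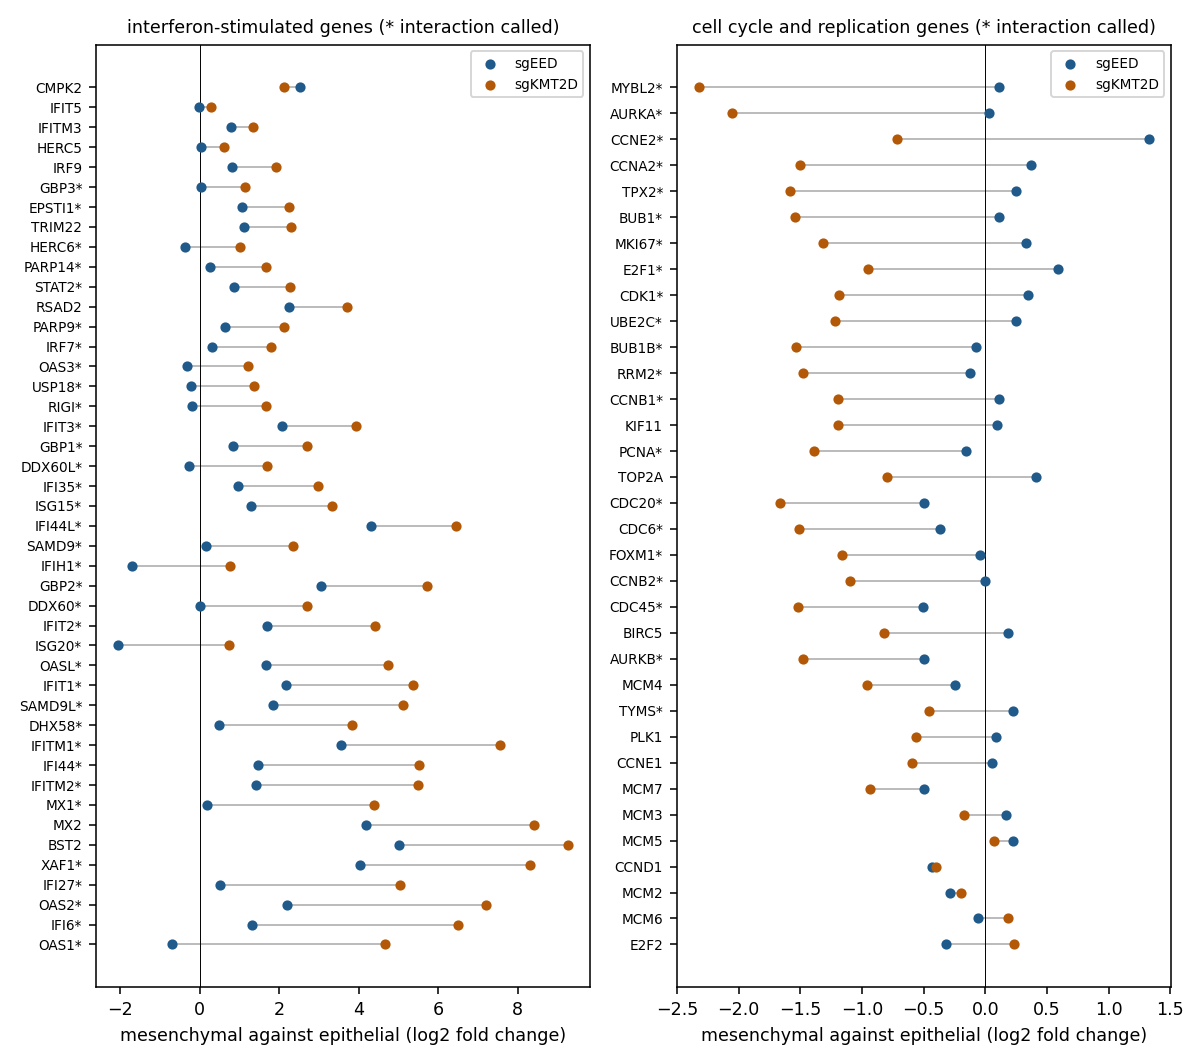
Log2 change of the measured interferon-stimulated genes (left, 1 left out) and of each measured cell cycle gene (right) in the sgEED transition (blue) and the sgKMT2D transition (orange), ordered by the interaction; an asterisk marks a called interaction. Orange points lie right of the blue ones in the called interferon-stimulated genes drawn and left of them in the 21 called cell cycle genes.

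Epithelial keratins and junction genes separated into those lost further with each guide. Simple epithelial keratins, the filament proteins of single-layered epithelia, had 5 of 7 members called higher (71.4% called, 20.1% of all genes), with a median interaction of 1.82 (2.81 without sgKMT2D-Mes replicate 2). Leaving out any 1 library left 5 called. KRT8 (ENSG00000170421, chromosome 12, 52897187 to 52949954) stood at 649.5 and 756 CPM in the sgEED-Epi libraries, 1033 and 877 in sgEED-Mes, 251 and 273 in sgKMT2D-Epi and 31.4 and 27.3 in sgKMT2D-Mes, and its partner KRT18 at 639 and 746 CPM in the sgEED-Epi libraries, 348 and 298 in sgEED-Mes, 266 and 283 in sgKMT2D-Epi and 18.6 and 17.3 in sgKMT2D-Mes. KRT8 rose with sgEED and fell with sgKMT2D, while KRT18 fell under both guides and further with sgKMT2D. The interactions were 3.60 ± 0.20 (adjusted p = 9.03e-08) and 2.83 ± 0.22 (adjusted p = 1.29e-06). KRT7 went from 1287 ± 94.6 to 813 ± 136 CPM with sgEED and from 1405 ± 34.0 to 276 ± 31.4 with sgKMT2D and KRT81, a hair-type keratin, from 92.7 ± 6.17 to 12.8 ± 3.17 CPM with sgEED and from 42.1 ± 1.88 to 0.256 ± 0.0523 with sgKMT2D, with interactions of 1.69 ± 0.22 (adjusted p = 0.000133) and 4.48 ± 0.34 (adjusted p = 1.29e-06). Of 9 basal and stress keratins, 2 were higher and 3 lower (55.6% called, 20.1% of all genes). KRT5 went from 4241 ± 559 to 127 ± 24.1 CPM with sgEED and from 3725 ± 65.8 to 21.9 ± 1.78 with sgKMT2D and KRT17 from 2687 ± 321 to 678 ± 101 CPM with sgEED and from 2650.1 ± 145 to 133 ± 6.59 with sgKMT2D, both falling further with sgKMT2D, while KRT14, which pairs with KRT5 in basal cells, went from 265 ± 42.3 to 4.49 ± 0.877 CPM with sgEED and from 53.7 ± 2.83 to 3.13 ± 0.463 with sgKMT2D and fell further with sgEED. The interactions of KRT5, KRT17 and KRT14 were 2.35 ± 0.27 (adjusted p = 3.6e-05), 2.33 ± 0.26 (adjusted p = 3.54e-05) and -1.77 ± 0.31 (adjusted p = 0.00112). For KRT14 the sgKMT2D-Epi libraries started lower than the sgEED-Epi libraries, while the mesenchymal means were 3.13 CPM with sgKMT2D and 4.49 with sgEED. Keratin genes have many processed pseudogenes, and how reads shared with them were counted is not given in the sources used here.

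Epithelial adhesion and polarity genes had 4 of 29 members higher and 7 lower (37.9% called, 20.1% of all genes), with a median of 0.06. With sgEED 26 fell (17.3% of all genes did) and with sgKMT2D 25 (24% of all genes did). The 11 interaction calls were 7 without sgKMT2D-Mes replicate 1. DSP (ENSG00000096696, chromosome 6, 7541575 to 7586717), the plaque protein desmoplakin that ties desmosomes to keratin, stood at 1124 and 908 CPM in the sgEED-Epi libraries, 908 and 1089 in sgEED-Mes, 1048 and 986 in sgKMT2D-Epi and 49.6 and 48.6 in sgKMT2D-Mes. The sgEED-Mes libraries lay in the range of the epithelial ones, and only the sgKMT2D-Mes libraries were low, with an interaction of 4.35 ± 0.33 (adjusted p = 1.29e-06). CDH1, E-cadherin of adherens junctions, went from 323 ± 36.6 to 0.298 ± 0.297 CPM with sgEED and from 220.2 ± 5.73 to 1.15 ± 0.387 with sgKMT2D: it fell under both guides and further with sgEED (interaction -2.41 ± 0.50, adjusted p = 0.00368, with a value of -4.16 without sgEED-Mes replicate 1). CLDN4, a claudin of tight junctions, went from 6.21 ± 1.35 to 0.324 ± 0.209 CPM with sgEED and from 0.565 ± 0.0466 to 0.494 ± 0.106 with sgKMT2D: it fell with sgEED, while the sgKMT2D transition was not called (interaction -4.001 ± 0.65, adjusted p = 0.000682). For CLDN4 the sgKMT2D-Epi libraries were already low. Outside this list, AGR2, a disulfide isomerase of secretory epithelia, stood at 99.1 and 126 CPM in the sgEED-Epi libraries, 2.90 and 2.33 in sgEED-Mes, 131 and 136 in sgKMT2D-Epi and 126 and 131 in sgKMT2D-Mes, so that only the sgEED-Mes libraries were low (interaction -5.36 ± 0.68, adjusted p = 9.96e-05). CD24, a surface marker of epithelial mammary cells also outside this list, went from 337 ± 27.1 to 31.8 ± 10.8 CPM with sgEED and from 176 ± 4.79 to 1.15 ± 0.0841 with sgKMT2D. It fell further with sgKMT2D (interaction 3.83 ± 0.29, adjusted p = 1.25e-06).

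Epithelial transcription and splicing regulators had 2 of 18 members called higher and 7 lower (50% called, 20.1% of all genes, median -0.98). The 2 called higher, TFAP2C and KLF5, lie on the shifted stretches. Off these stretches 0 of 15 members were higher and 7 lower, with a median of -1.28. TP63, the master regulator of basal epithelium, stood at 137 and 149 CPM in the sgEED-Epi libraries, 0.181 and 0.0880 in sgEED-Mes, 84.3 and 70.1 in sgKMT2D-Epi and 1.17 and 1.09 in sgKMT2D-Mes and fell further with sgEED (interaction -3.87 ± 0.55, adjusted p = 0.000213). IRX4, a homeobox factor counted with the developmental factors below, went from 17.0 ± 2.07 to 0.157 ± 0.0349 CPM with sgEED and from 3.83 ± 0.555 to 0.450 ± 0.0446 with sgKMT2D. It likewise fell further with sgEED (interaction -3.62 ± 0.54, adjusted p = 0.000359). FOXA1, a pioneer factor of luminal cells, went from 0.784 ± 0.0322 to 0.164 ± 0.0787 CPM with sgEED and from 0.317 ± 0.0534 to 1.84 ± 0.240 with sgKMT2D: it fell with sgEED and rose with sgKMT2D (interaction -4.77 ± 0.62, adjusted p = 0.000102). TFAP2C, on chromosome 20, went from 28.04 ± 2.33 to 2.80 ± 0.270 CPM with sgEED and from 31.7 ± 3.48 to 0.491 ± 0.0751 with sgKMT2D and fell further with sgKMT2D (interaction 2.67 ± 0.37, adjusted p = 0.000181). The E-box CAGGTG, a sequence bound by ZEB and SNAI repressors, was searched on both strands of the 300-base promoters. Among genes that fell under both guides, it was present in 42 of 100 promoters (42%) where the fall was larger with sgEED. Where the fall was larger with sgKMT2D the share was 66 of 235 (28.1%). Of genes with 1 transition called, 25.5% of those that fell with sgEED and 19.8% of those that fell with sgKMT2D held it. Of genes that moved in opposite directions, 18.1% of those that fell with sgEED and 16.9% of those that fell with sgKMT2D held it. It was in 10.7% and 13.3% of those that rose more with sgEED and with sgKMT2D, and in 18.6% of all tested genes.

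Regulators of the transition were called in both directions. SNAI1 (ENSG00000124216, chromosome 20, 49982999 to 49988886), a repressor of CDH1 encoded on chromosome 20, stood at 1.07 and 0.772 CPM in the sgEED-Epi libraries, 5.66 and 5.19 in sgEED-Mes, 0.177 and 0.478 in sgKMT2D-Epi and 0.0837 and 0 in sgKMT2D-Mes. It rose with sgEED and fell with sgKMT2D (interaction 5.33 ± 0.84, adjusted p = 0.000575, with a value of 8.60 without sgKMT2D-Mes replicate 1). PRRX1, a homeobox factor of mesenchyme, stood at 0.343 and 0.421 CPM in the sgEED-Epi libraries, 12.2 and 17.0 in sgEED-Mes, 0.177 and 0.0797 in sgKMT2D-Epi and 56.3 and 54.1 in sgKMT2D-Mes and rose further with sgKMT2D (interaction -3.43 ± 0.55, adjusted p = 0.000588). ZEB1 stood at 6.02 and 1.61 CPM in the sgEED-Epi libraries, 65.9 and 31.2 in sgEED-Mes, 10.2 and 9.28 in sgKMT2D-Epi and 301 and 333 in sgKMT2D-Mes and ZEB2 at 3.58 and 1.90 CPM in the sgEED-Epi libraries, 62.0 and 70.0 in sgEED-Mes, 8.72 and 8.37 in sgKMT2D-Epi and 77.2 and 76.6 in sgKMT2D-Mes. Both rose under both guides. The interaction of ZEB2 was 1.43 ± 0.45 (adjusted p = 0.0415, 6.27e-05 to 0.18 over 15 alternatives, not called without sgEED-Epi replicate 2, either sgEED-Mes library, either sgKMT2D-Epi library or either sgKMT2D-Mes library), and that of ZEB1 was -1.34 ± 0.68 (adjusted p = 0.189). For ZEB1 it was -0.05 (adjusted p = 0.991) without sgEED-Epi replicate 1 and called (adjusted p = 0.0398) without sgEED-Epi replicate 2, and it was called with no filter on low counts (adjusted p = 9.85e-05). ZEB1 was highest in the sgKMT2D-Mes libraries, and its replicates lay far apart in both sgEED groups. SNAI2 stood between 125 and 237 CPM in the 8 libraries and did not pass (interaction 1.05 ± 0.40, adjusted p = 0.0828), but was called by DESeq2 (adjusted p = 0.0461), with no filter on low counts (adjusted p = 0.000434) and in the 8 libraries alone (adjusted p = 0.00558). In all, 4 of 18 listed regulators were called higher and 3 lower (38.9% called, 20.1% of all genes). The 7 calls were 2 without sgKMT2D-Mes replicate 1, 3 without sgEED-Mes replicate 2 or sgKMT2D-Epi replicate 1 and 4 without sgKMT2D-Epi replicate 2 or sgKMT2D-Mes replicate 2. CDH2, N-cadherin, went from 79.1 ± 1.70 to 183 ± 40.9 CPM with sgEED and from 10.8 ± 1.53 to 80.2 ± 0.0676 with sgKMT2D and rose under both guides. Its interaction was -1.69 ± 0.47 (adjusted p = 0.0225, 1.06e-07 to 0.0877 over 15 alternatives, not called without sgEED-Epi replicate 1, sgEED-Mes replicate 1, either sgKMT2D-Epi library or either sgKMT2D-Mes library), and its lowest group was sgKMT2D-Epi.

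Matrix genes were called in both directions. Of 29 proteoglycans and matricellular proteins, 10 were called higher and 7 lower (58.6% called, 20.1% of all genes), with a median of -0.02. POSTN (ENSG00000133110, chromosome 13, 37562583 to 37598844), periostin, a matrix protein of mesenchyme encoded on chromosome 13, stood at 0.152 and 0 CPM in the sgEED-Epi libraries, 586 and 360.1 in sgEED-Mes, 25.4 and 21.9 in sgKMT2D-Epi and 16.2 and 18.5 in sgKMT2D-Mes. It rose with sgEED from near 0, while the 4 sgKMT2D libraries lay between 16.2 and 25.4 CPM and that transition was not called (interaction 13.01 ± 0.75, adjusted p = 1.59e-07). The value of POSTN ranged from 12.01 to 17.03 over 15 alternatives. VCAN, the large proteoglycan versican, went from 203 ± 116 to 691 ± 177 CPM with sgEED and from 209 ± 0.468 to 152 ± 0.699 with sgKMT2D, and TNC, tenascin C, from 193 ± 13.2 to 461 ± 111 CPM with sgEED and from 40.3 ± 1.52 to 15.1 ± 0.121 with sgKMT2D, with interactions of 2.23 ± 0.55 (adjusted p = 0.011, 9.06e-17 to 0.0516 over 15 alternatives, not called without either sgKMT2D-Mes library) and 2.67 ± 0.24 (adjusted p = 5.7e-06). SPP1, osteopontin, went from 0.861 ± 0.0755 to 9.19 ± 0.0729 CPM with sgEED and from 0.206 ± 0.00954 to 0.127 ± 0.0564 with sgKMT2D (interaction 4.08 ± 0.89, adjusted p = 0.00525). In the other direction FBLN1, fibulin 1, went from 7.44 ± 0.449 to 90.2 ± 14.6 CPM with sgEED and from 5.86 ± 0.669 to 1154 ± 76.6 with sgKMT2D and DCN, the small proteoglycan decorin, from 10.1 ± 0.0948 to 194 ± 3.69 CPM with sgEED and from 15.8 ± 1.30 to 765 ± 10.6 with sgKMT2D, with interactions of -4.02 ± 0.21 (adjusted p = 5.7e-08) and -1.34 ± 0.33 (adjusted p = 0.0129, 1.4e-05 to 0.0752 over 15 alternatives, not called without sgEED-Mes replicate 2, either sgKMT2D-Epi library or either sgKMT2D-Mes library). Among 28 collagens and collagen enzymes, 26 rose with sgEED (19.2% of all genes did) and 20 with sgKMT2D (26.8% of all genes did). In the interaction 5 were higher and 3 lower (28.6% called, 20.1% of all genes). With any 1 sgKMT2D library left out, fewer members of this list were called. PCOLCE, which speeds the cleavage of procollagen, stood at 1.79 and 1.40 CPM in the sgEED-Epi libraries, 50.8 and 33.0 in sgEED-Mes, 1.10 and 0.797 in sgKMT2D-Epi and 368 and 345 in sgKMT2D-Mes and rose further with sgKMT2D (interaction -3.83 ± 0.44, adjusted p = 4.18e-05). LOX, which crosslinks collagen, went from 24.7 ± 1.66 to 285 ± 55.9 CPM with sgEED and from 24.4 ± 2.50 to 44.6 ± 1.70 with sgKMT2D (interaction 2.65 ± 0.52, adjusted p = 0.00278), and COL1A1, the alpha 1 chain of type I collagen, from 38.4 ± 2.48 to 936 ± 200.2 CPM with sgEED and from 19.03 ± 1.76 to 97.7 ± 6.22 with sgKMT2D. The interaction of COL1A1 was 2.25 ± 0.73 (adjusted p = 0.0463, 1.85e-18 to 0.122 over 15 alternatives, not called without any 1 of the 8 libraries). COL4A1, a chain of basement membrane collagen encoded on chromosome 13, went from 265 ± 18.8 to 3221 ± 215 CPM with sgEED and from 235 ± 8.02 to 965 ± 35.9 with sgKMT2D (interaction 1.57 ± 0.19, adjusted p = 7.11e-05). NID1, nidogen, went from 0.732 ± 0.0423 to 1.45 ± 0.311 CPM with sgEED and from 0.0576 ± 0.0313 to 27.8 ± 1.34 with sgKMT2D (interaction -7.85 ± 0.63, adjusted p = 3.39e-06). Of 18 hemidesmosome and basement membrane genes 4 were higher and 3 lower (38.9% called, 20.1% of all genes). COL4A1 and COL4A2, both higher, lie on the shifted stretches, and off these 2 of 15 were higher and 3 lower. The 7 calls were 12 without sgEED-Mes replicate 1.

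Integrins, the receptors for these proteins, had 4 of 16 listed members higher and 5 lower (56.2% called, 20.1% of all genes). The 9 calls were 5 without sgKMT2D-Epi replicate 1. ITGA11 (ENSG00000137809, chromosome 15, 68296533 to 68432162), the alpha chain of a collagen receptor, stood at 0.152 and 0.105 CPM in the sgEED-Epi libraries, 634 and 489 in sgEED-Mes, 0.213 and 0.359 in sgKMT2D-Epi and 2.34 and 1.79 in sgKMT2D-Mes. It rose under both guides, and the sgEED-Mes libraries were the only ones above 3 CPM (interaction 9.19 ± 0.94, adjusted p = 2.91e-05). ITGA4, the alpha chain of a receptor for VCAM1 and fibronectin, stood at 44.9 and 29.6 CPM in the sgEED-Epi libraries, 16.9 and 16.8 in sgEED-Mes, 0 and 0.120 in sgKMT2D-Epi and 13.6 and 15.5 in sgKMT2D-Mes. Here the sgKMT2D-Epi libraries were the only ones near 0: the gene fell with sgEED, rose with sgKMT2D, and stood between 13.6 and 16.9 CPM in the 4 mesenchymal libraries (interaction -9.03 ± 0.55, adjusted p = 1.74e-07). ITGB4, the beta chain of hemidesmosomes, counted with the hemidesmosome genes, went from 669 ± 50.3 to 22.8 ± 4.32 CPM with sgEED and from 537 ± 45.5 to 114 ± 7.502 with sgKMT2D. It fell further with sgEED (interaction -2.63 ± 0.22, adjusted p = 2.44e-06). Among 22 proteases and inhibitors, 3 were higher and 4 lower (31.8% called, 20.1% of all genes). TIMP3, an inhibitor of metalloproteinases, stood at 127 and 149 CPM in the sgEED-Epi libraries, 986 and 831 in sgEED-Mes, 137 and 138 in sgKMT2D-Epi and 139.7 and 136 in sgKMT2D-Mes and rose with sgEED, while the sgKMT2D transition was not called (interaction 2.72 ± 0.32, adjusted p = 4.42e-05). ADAMTS1, a protease of proteoglycans, went from 28.5 ± 4.94 to 22.0 ± 1.70 CPM with sgEED and from 3.27 ± 0.234 to 46.7 ± 3.59 with sgKMT2D and rose with sgKMT2D (interaction -4.21 ± 0.26, adjusted p = 1.74e-07).

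Contractile smooth muscle genes had 6 of 21 members called higher and 2 lower (38.1% called, 20.1% of all genes), with a median of 0.64. TAGLN, an actin-binding protein, stood at 10.7 and 13.4 CPM in the sgEED-Epi libraries, 1008 and 814 in sgEED-Mes, 14.8 and 15.4 in sgKMT2D-Epi and 87.9 and 76.8 in sgKMT2D-Mes, and TPM1, tropomyosin, at 252 and 267 CPM in the sgEED-Epi libraries, 1329 and 1659 in sgEED-Mes, 253 and 233 in sgKMT2D-Epi and 359 and 359 in sgKMT2D-Mes. Both rose under both guides and further with sgEED, with interactions of 3.79 ± 0.26 (adjusted p = 5.4e-07) and 1.96 ± 0.21 (adjusted p = 2.37e-05). ACTG2, smooth muscle gamma actin, went from 0.313 ± 0.0956 to 136 ± 13.7 CPM with sgEED and from 0.246 ± 0.0468 to 8.46 ± 0.516 with sgKMT2D (interaction 3.66 ± 0.66, adjusted p = 0.00181), and ACTA2, smooth muscle alpha actin, from 17.7 ± 2.03 to 183 ± 27.7 CPM with sgEED and from 33.0 ± 2.88 to 108 ± 0.00409 with sgKMT2D (interaction 1.66 ± 0.29, adjusted p = 0.00112). Genes of this kind carry CArG boxes, the binding element of serum response factor, searched here on either strand as CC, then 6 bases that are each A or T, then GG. The 170 bases before the start of ACTG2 (chr2:73892838-73893007, plus strand, RefSeq, GRCh38.p14) held matches that begin 110 and 73 bases before the start, shown in capitals.
ACTG2: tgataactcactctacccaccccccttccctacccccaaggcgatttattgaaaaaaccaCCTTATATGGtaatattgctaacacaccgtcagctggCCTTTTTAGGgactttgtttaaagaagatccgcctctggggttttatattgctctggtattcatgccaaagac
A CArG match was present in 6 of 18 promoters (33.3%) of the measured contractile genes and in 1.08% of all tested genes. It was in 2 of the 6 called members that have a promoter there, and TPM1 and ACTA2 held none in this window. The 2 members called lower were SYNPO2, an actin-bundling protein that went from 1.14 ± 0.376 to 1.46 ± 0.115 CPM with sgEED and from 0.379 ± 0.0843 to 2.48 ± 0.0794 with sgKMT2D (interaction -2.35 ± 0.51, adjusted p = 0.0049), and SMTN, smoothelin, with an interaction of -0.97 ± 0.22 (adjusted p = 0.00661, 0.000341 to 0.0947 over 15 alternatives, not called with offsets for GC content and length, with a value of -0.42 with offsets for GC content and length).

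In TGF-beta, BMP and activin signalling, 8 of 34 listed genes were called higher and 4 lower (35.3% called, 20.1% of all genes; 9.24% of all genes were called higher and 10.9% lower), with a median of 0.29. LRRC32, which holds latent TGF-beta at the cell surface, stood at 0 and 0 CPM in the sgEED-Epi libraries, 74.4 and 56.1 in sgEED-Mes, 0.0354 and 0 in sgKMT2D-Epi and 0.0837 and 0 in sgKMT2D-Mes. It was above 1 CPM in sgEED-Mes alone, at least 595-fold higher than in sgEED-Epi. Its interaction had an adjusted p of 0.0199 (2.89e-06 to 1 over 15 alternatives, not called without sgKMT2D-Epi replicate 1). PMEPA1, a feedback target of TGF-beta on chromosome 20, stood at 251 and 279 CPM in the sgEED-Epi libraries, 247 and 265 in sgEED-Mes, 281 and 269.8 in sgKMT2D-Epi and 16.7 and 15.1 in sgKMT2D-Mes and fell with sgKMT2D (interaction 4.06 ± 0.20, adjusted p = 4.18e-08). INHBA, the activin A subunit, went from 254 ± 90.5 to 145 ± 1.71 CPM with sgEED and from 309 ± 45.3 to 45.5 ± 2.66 with sgKMT2D (interaction 1.95 ± 0.52, adjusted p = 0.0172, 1.28e-12 to 0.0791 over 15 alternatives, not called without sgEED-Epi replicate 2, sgEED-Mes replicate 2, sgKMT2D-Epi replicate 1 or either sgKMT2D-Mes library), and SMAD7, an inhibitory SMAD, from 14.95 ± 1.44 to 23.99 ± 0.749 CPM with sgEED and from 8.94 ± 0.191 to 4.99 ± 1.23 with sgKMT2D (interaction 1.52 ± 0.30, adjusted p = 0.00273). ID2, a target of BMP signalling that inhibits bHLH factors, stood at 2.13 and 2.84 CPM in the sgEED-Epi libraries, 23.9 and 27.9 in sgEED-Mes, 5.14 and 5.90 in sgKMT2D-Epi and 1.46 and 1.40 in sgKMT2D-Mes, rose with sgEED and fell with sgKMT2D (interaction 5.32 ± 0.36, adjusted p = 5.19e-07). Its relative ID3 went from 49.3 ± 4.05 to 14.1 ± 4.99 CPM with sgEED and from 31.3 ± 4.73 to 28.7 ± 0.836 with sgKMT2D, with an interaction of the other sign (interaction -1.68 ± 0.33, adjusted p = 0.00284). GREM1, a secreted BMP antagonist, stood at 0.190 and 0.175 CPM in the sgEED-Epi libraries, 0.617 and 0.528 in sgEED-Mes, 0.780 and 0.876 in sgKMT2D-Epi and 104 and 93.5 in sgKMT2D-Mes and rose with sgKMT2D (interaction -5.26 ± 0.93, adjusted p = 0.00137).

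Wnt genes had 11 of 36 members called higher and 5 lower (44.4% called, 20.1% of all genes), with a median of 0.34 (0.54 without sgKMT2D-Epi replicate 2). WNT5A, a ligand of the pathway that does not act through beta-catenin, stood at 0.0381 and 0 CPM in the sgEED-Epi libraries, 0.580 and 0.528 in sgEED-Mes, 2.66 and 2.15 in sgKMT2D-Epi and 0.126 and 0.131 in sgKMT2D-Mes, with the sgKMT2D-Epi libraries the highest (interaction 8.77 ± 1.40, adjusted p = 0.000819). Its receptor ROR2 went from 1.87 ± 0.228 to 24.7 ± 6.92 CPM with sgEED and from 0.551 ± 0.178 to 0.770 ± 0.0246 with sgKMT2D (interaction 3.23 ± 0.51, adjusted p = 0.000583). SFRP1, a secreted inhibitor of Wnt ligands, went from 80.6 ± 9.37 to 31.9 ± 1.96 CPM with sgEED and from 19.9 ± 2.13 to 0.707 ± 0.0529 with sgKMT2D (interaction 3.47 ± 0.25, adjusted p = 6.07e-07). WNT7B, an epithelial ligand, went from 45.9 ± 1.46 to 5.29 ± 0.515 CPM with sgEED and from 16.8 ± 2.29 to 0.126 ± 0.117 with sgKMT2D and fell further with sgKMT2D (interaction 3.87 ± 0.47, adjusted p = 6.43e-05). RNF43, which removes Wnt receptors, went from 8.24 ± 1.05 to 0.754 ± 0.319 CPM with sgEED and from 4.40 ± 0.204 to 0 ± 0 with sgKMT2D. It was at 0 in sgKMT2D-Mes, where its fall was at least 34.3-fold.

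Growth factor genes had 9 of 32 members higher and 6 lower (46.9% called, 20.1% of all genes). PDGFRA, the receptor of mesenchymal cells for PDGF, stood at 1.41 and 1.12 CPM in the sgEED-Epi libraries, 3.48 and 3.30 in sgEED-Mes, 1.28 and 0.757 in sgKMT2D-Epi and 92.4 and 88.5 in sgKMT2D-Mes and rose further with sgKMT2D (interaction -5.03 ± 0.42, adjusted p = 2.44e-06). PDGFD, a ligand of the PDGF family, went from 0.905 ± 0.336 to 11.5 ± 1.69 CPM with sgEED and from 0.170 ± 0.0406 to 32.9 ± 1.69 with sgKMT2D (interaction -3.89 ± 0.56, adjusted p = 0.000276). IGF2, an imprinted growth factor, stood at 16.9 and 14.5 CPM in the sgEED-Epi libraries, 65.4 and 96.8 in sgEED-Mes, 18.1 and 14.6 in sgKMT2D-Epi and 5.27 and 5.69 in sgKMT2D-Mes: it rose with sgEED and fell with sgKMT2D (interaction 3.95 ± 0.49, adjusted p = 8.77e-05). FGF5 went from 23.2 ± 1.83 to 6.41 ± 2.14 CPM with sgEED and from 5.01 ± 0.940 to 29.9 ± 0.283 with sgKMT2D and moved the opposite way (interaction -4.43 ± 0.39, adjusted p = 3.93e-06). TGFA, an EGF receptor ligand, went from 67.1 ± 7.72 to 4.82 ± 1.02 CPM with sgEED and from 60.3 ± 1.61 to 0.321 ± 0.0200 with sgKMT2D (interaction 3.73 ± 0.40, adjusted p = 2.22e-05). Outside this list, HRAS, of which the line carries an introduced oncogenic copy, stood at 96.4 and 108 CPM in the sgEED-Epi libraries, 154 and 135 in sgEED-Mes, 89.4 and 88.2 in sgKMT2D-Epi and 61.9 and 55.7 in sgKMT2D-Mes, with a small interaction of 1.09 ± 0.24 (adjusted p = 0.00527, with a value of 1.75 with offsets for GC content and length). Endogenous and introduced HRAS reads cannot be told apart here.

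Notch genes had 6 of 18 members called lower, where 10.9% of all genes were, with a median of -0.99 (-0.53 with offsets for GC content and length and -1.55 without sgEED-Mes replicate 1). NOTCH3, a receptor, stood at 15.9 and 18.3 CPM in the sgEED-Epi libraries, 72.2 and 45.8 in sgEED-Mes, 1.81 and 3.03 in sgKMT2D-Epi and 55.2 and 49.9 in sgKMT2D-Mes and rose further with sgKMT2D, from a lower start (interaction -2.66 ± 0.46, adjusted p = 0.00128). The target HES1 went from 63.9 ± 11.8 to 26.6 ± 0.562 CPM with sgEED and from 39.2 ± 0.960 to 157 ± 0.00560 with sgKMT2D, falling with sgEED and rising with sgKMT2D (interaction -3.27 ± 0.56, adjusted p = 0.00105), and HEY1 went from 0.422 ± 0.0502 to 1.29 ± 0.0207 CPM with sgEED and from 0.244 ± 0.00643 to 14.5 ± 3.40 with sgKMT2D (interaction -4.26 ± 1.01, adjusted p = 0.00906, 1.1e-11 to 0.0542 over 15 alternatives, not called without sgEED-Epi replicate 1). Axon guidance genes had 3 of 38 members higher and 15 lower (47.4% called, 20.1% of all genes), with a median of -0.46 (-0.25 with offsets for GC content and length and -0.27 without sgEED-Epi replicate 1). EPHA4, an ephrin receptor, stood at 11.3 and 11.6 CPM in the sgEED-Epi libraries, 23.7 and 25.2 in sgEED-Mes, 1.03 and 1.12 in sgKMT2D-Epi and 48.9 and 57.6 in sgKMT2D-Mes, and EPHB6 at 10.97 and 12.5 CPM in the sgEED-Epi libraries, 35.4 and 23.8 in sgEED-Mes, 0.177 and 0.239 in sgKMT2D-Epi and 38.6 and 33.8 in sgKMT2D-Mes. Both had low sgKMT2D-Epi libraries and rose under both guides, further with sgKMT2D, with interactions of -4.53 ± 0.25 (adjusted p = 9.03e-08) and -6.08 ± 0.46 (adjusted p = 1.23e-06). SLIT2, a secreted repellent, stood at 21.4 and 21.9 CPM in the sgEED-Epi libraries, 11.2 and 14.0 in sgEED-Mes, 4.43 and 4.62 in sgKMT2D-Epi and 73.4 and 67.5 in sgKMT2D-Mes, falling with sgEED and rising with sgKMT2D (interaction -4.75 ± 0.28, adjusted p = 1.26e-07). In this list 23 of 38 genes were higher in sgEED-Epi than in sgKMT2D-Epi, where 12.9% of all genes were.

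PRC2 represses developmental transcription factors and HOX genes. Of 63 measured developmental factors, 13 were called higher and 8 lower (33.3% called, 20.1% of all genes), with a median of 0.75. With sgEED 32 rose and 8 fell (median 1.13, where 19.2% of all genes rose and 17.3% fell). With sgKMT2D 17 rose and 15 fell (median 0, where 26.8% of all genes rose and 24% fell), and the share called was 50.8% both in the list and over all genes. RUNX3, a RUNT family factor, stood at 4.87 and 5.16 CPM in the sgEED-Epi libraries, 7.29 and 7.44 in sgEED-Mes, 0.638 and 0.438 in sgKMT2D-Epi and 0 and 0.0438 in sgKMT2D-Mes (interaction 4.93 ± 0.79, adjusted p = 0.00103). GATA4, a factor of heart and endoderm, stood at 0 and 0 CPM in the sgEED-Epi libraries, 3.81 and 4.23 in sgEED-Mes, 0.0709 and 0 in sgKMT2D-Epi and 0 and 0 in sgKMT2D-Mes, above 1 CPM in sgEED-Mes alone. Its interaction had an adjusted p of 0.0127 (6.1e-05 to 1 over 15 alternatives, not called without sgKMT2D-Epi replicate 1). SOX9 went from 83.5 ± 5.59 to 32.6 ± 9.93 CPM with sgEED and from 54.8 ± 9.12 to 88.8 ± 0.457 with sgKMT2D (interaction -2.06 ± 0.26, adjusted p = 8.45e-05), and GATA6 from 8.87 ± 0.805 to 6.96 ± 0.303 CPM with sgEED and from 5.46 ± 0.796 to 1.33 ± 0.0181 with sgKMT2D (interaction 1.69 ± 0.30, adjusted p = 0.00122). Of 30 HOX genes 6 were higher and 2 lower (26.7% called, 20.1% of all genes). The 8 calls were 4 without sgKMT2D-Mes replicate 1 and 5 without sgEED-Mes replicate 2 or either sgKMT2D-Epi library. HOXA13 went from 1.43 ± 0.408 to 3.18 ± 1.42 CPM with sgEED and from 1.62 ± 0.317 to 0.150 ± 0.0350 with sgKMT2D, rising with sgEED and falling with sgKMT2D (interaction 4.53 ± 0.60, adjusted p = 0.000189). Of 13 PRC2 genes EED, EZH1 and PHF1 were called lower and EZH2 higher (30.8% called, 20.1% of all genes). The 4 calls were 1 without sgKMT2D-Epi replicate 1 and 2 without sgKMT2D-Mes replicate 1. Of 18 COMPASS and H3K27 demethylase genes 2 were called (11.1% called, 20.1% of all genes), and both lie on the shifted stretches: SETD1A, on chromosome 16 before 40 Mb, was lower and NCOA6, on chromosome 20, higher. Leaving out any 1 of the 8 libraries gave 0 to 6 calls. The interaction of SETD1A was -0.69 ± 0.19 (adjusted p = 0.0197, 0.00255 to 0.71 over 15 alternatives, not called without sgEED-Epi replicate 2, either sgKMT2D-Epi library or either sgKMT2D-Mes library or with offsets for GC content and length or no filter on low counts, with a value of -0.15 with offsets for GC content and length). EZH1, the catalytic subunit of resting cells, went from 20.3 ± 1.77 to 23.6 ± 1.25 CPM with sgEED and from 20.2 ± 1.19 to 46.3 ± 1.66 with sgKMT2D, and EZH2, that of dividing cells, from 40.04 ± 3.14 to 51.0 ± 6.82 CPM with sgEED and from 45.8 ± 4.52 to 33.6 ± 0.924 with sgKMT2D, with interactions of -0.98 ± 0.22 (adjusted p = 0.00647, 0.000567 to 0.0514 over 15 alternatives, not called without sgKMT2D-Epi replicate 1) and 0.80 ± 0.22 (adjusted p = 0.0185, 0.00121 to 0.0662 over 15 alternatives, not called without sgKMT2D-Epi replicate 1 or sgKMT2D-Mes replicate 1).

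Metabolic and stress lists had median interactions of 0.50 or less. ATF4 and unfolded protein response genes had 9 of 26 members higher and 1 lower (38.5% called, 20.1% of all genes, median 0.49). The 10 calls were 5 without sgKMT2D-Mes replicate 1 and 6 without either sgKMT2D-Epi library or sgKMT2D-Mes replicate 2. ASNS, asparagine synthetase, stood at 69.7 and 82.3 CPM in the sgEED-Epi libraries, 82.5 and 96.2 in sgEED-Mes, 73.5 and 73.3 in sgKMT2D-Epi and 19.95 and 22.5 in sgKMT2D-Mes, with only the sgKMT2D-Mes libraries low (interaction 2.02 ± 0.20, adjusted p = 1.18e-05). SLC7A5, a transporter of large amino acids, went from 1064 ± 91.1 to 177 ± 18.9 CPM with sgEED and from 814 ± 44.9 to 28.1 ± 1.61 with sgKMT2D (interaction 2.27 ± 0.21, adjusted p = 6.32e-06). Hypoxia and glycolysis genes had 7 of 24 higher and 2 lower (37.5% called, 20.1% of all genes, median 0.50). The 9 calls were 4 without sgKMT2D-Epi replicate 1 and 5 without sgKMT2D-Mes replicate 1. LDHA, lactate dehydrogenase A, went from 2200.3 ± 328 to 2291 ± 327 CPM with sgEED and from 2129.5 ± 45.3 to 1185 ± 19.6 with sgKMT2D (interaction 0.90 ± 0.20, adjusted p = 0.00641). Of 30 cholesterol and fatty acid synthesis genes 3 were higher and 3 lower (20% called, 20.1% of all genes, median -0.03). The 6 calls were 3 without sgEED-Mes replicate 2, sgKMT2D-Epi replicate 1 or either sgKMT2D-Mes library.

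**Figure D5:**
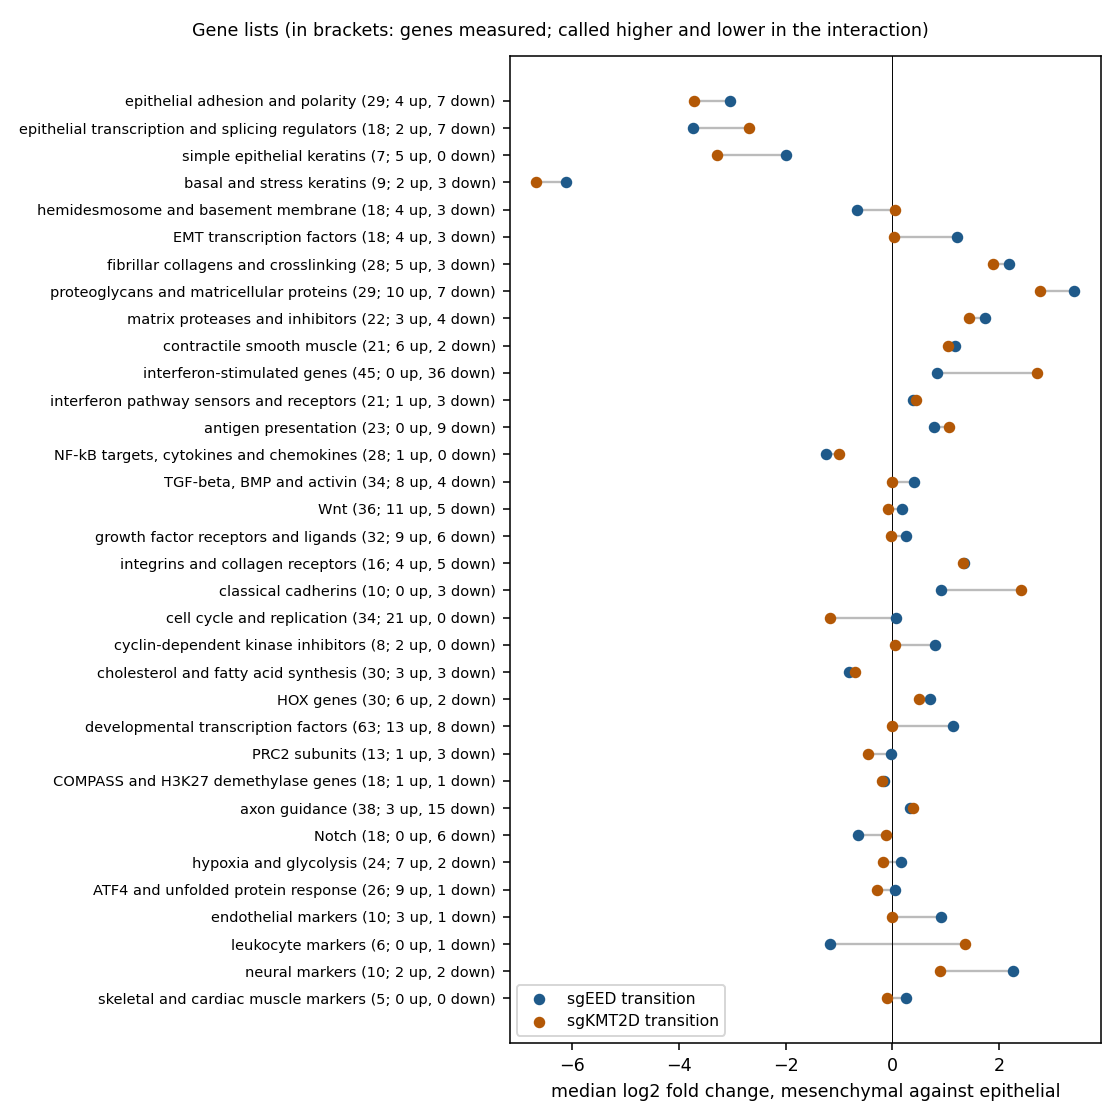
Median log2 change of each list with at least 5 measured genes in the sgEED transition (blue) and the sgKMT2D transition (orange); brackets give the genes measured and those called higher (up) and lower (down) in the interaction. Gaps with many calls include those of the interferon-stimulated genes (0.83 and 2.71) and the cell cycle genes (0.07 and -1.17). Some smaller lists had wider gaps than the cell cycle genes, among them the simple epithelial keratins (-1.99 and -3.28) and the leukocyte markers (-1.17 and 1.37).

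At the imprinted locus of chromosome 15, SNRPN and SNHG14 had called interactions. SNRPN (ENSG00000128739, chromosome 15, 24823637 to 24978723), normally expressed from the paternal copy, stood at 0.0762 and 0.0702 CPM in the sgEED-Epi libraries, 8.74 and 9.38 in sgEED-Mes, 10.2 and 12.2 in sgKMT2D-Epi and 17.1 and 15.7 in sgKMT2D-Mes, with an interaction of 6.31 ± 0.41 (adjusted p = 3.42e-07). SNHG14 (ENSG00000224078, chromosome 15, 24978583 to 25419462), the long transcript that continues from it, was chosen after its values were seen and stood at 0.267 and 0.281 CPM in the sgEED-Epi libraries, 58.4 and 69.5 in sgEED-Mes, 142 and 138 in sgKMT2D-Epi and 63.7 and 67.1 in sgKMT2D-Mes, with an interaction of 8.94 ± 0.32 (adjusted p = 1.75e-09). Both were near 0 in the sgEED-Epi libraries alone. With sgKMT2D they did not move together: SNRPN was higher and SNHG14 lower in the mesenchymal libraries. The 2 mesenchymal groups were similar for SNHG14, with a difference of -0.03 ± 0.17 on the log2 scale (adjusted p = 0.914), while the epithelial groups did not overlap.

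Genes that only 1 transition moved are illustrated by those with the other change under 0.50 on the log2 scale. CUX2, a homeobox factor, stood at 16.2 and 18.9 CPM in the sgEED-Epi libraries, 14.1 and 13.9 in sgEED-Mes, 18.5 and 18.9 in sgKMT2D-Epi and 0.251 and 0.0438 in sgKMT2D-Mes and KCNJ15, a potassium channel, at 67.5 and 66.0 CPM in the sgEED-Epi libraries, 76.8 and 83.3 in sgEED-Mes, 47.6 and 45.4 in sgKMT2D-Epi and 1.92 and 1.79 in sgKMT2D-Mes. In both, only the sgKMT2D-Mes libraries were low, with interactions of 6.59 ± 0.41 (adjusted p = 1.74e-07) and 4.90 ± 0.29 (adjusted p = 1.22e-07). LAMA4, a laminin chain, stood at 1.83 and 1.51 CPM in the sgEED-Epi libraries, 1.85 and 1.28 in sgEED-Mes, 0 and 0.0398 in sgKMT2D-Epi and 18.03 and 21.5 in sgKMT2D-Mes, and GSPT2, a translation release factor, at 12.8 and 13.8 CPM in the sgEED-Epi libraries, 10.7 and 10.96 in sgEED-Mes, 0.106 and 0.120 in sgKMT2D-Epi and 8.12 and 8.45 in sgKMT2D-Mes. Here the sgKMT2D-Epi libraries were near 0 and the others were not, with interactions of -9.78 ± 0.81 (adjusted p = 2.67e-06) and -6.44 ± 0.47 (adjusted p = 7.7e-07). CXCL12, a chemokine, stood at 0 and 0.0351 CPM in the sgEED-Epi libraries, 33.2 and 36.0 in sgEED-Mes, 0.0709 and 0 in sgKMT2D-Epi and 0.0837 and 0 in sgKMT2D-Mes: it was high in sgEED-Mes alone. Its adjusted p was 0.0122 (3.89e-06 to 1 over 15 alternatives, not called without sgKMT2D-Epi replicate 1). PLIN4, a protein of lipid droplets, went from 5.33 ± 0.751 to 0.325 ± 0.101 CPM with sgEED and from 2.62 ± 0.296 to 3.25 ± 0.0776 with sgKMT2D, lowest in sgEED-Mes (interaction -4.35 ± 0.51, adjusted p = 4.72e-05). Of genes that moved the same way, CNTNAP2, a neurexin relative, stood at 152 and 134 CPM in the sgEED-Epi libraries, 37.9 and 49.7 in sgEED-Mes, 174 and 152 in sgKMT2D-Epi and 0.795 and 0.657 in sgKMT2D-Mes and fell further with sgKMT2D (interaction 6.09 ± 0.28, adjusted p = 1.92e-08). SLC2A9, a urate transporter, went from 25.03 ± 1.78 to 0.288 ± 0.158 CPM with sgEED and from 12.2 ± 0.477 to 7.61 ± 0.241 with sgKMT2D and fell further with sgEED (interaction -5.69 ± 0.33, adjusted p = 1.12e-07).

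Markers of other cell types were summed in every library. The 14 endothelial markers summed to 53.4 and 64.2 CPM in sgEED-Mes, with FLT1 the highest, and to between 6.59 and 16.5 in the other 6 libraries, with 2 to 5 of them at 0, among them CLDN5 in all 8 libraries and CDH5 in 7. KDR, ERG and TEK were called higher and ROBO4 lower, of 10 tested (40% called, 20.1% of all genes). FLT1, which lies on chromosome 13, was not among those called. The 4 calls were 2 without sgKMT2D-Epi replicate 2 or sgKMT2D-Mes replicate 2. The 14 leukocyte markers summed to 7.46 and 7.72 CPM in sgEED-Epi, mostly CSF1R, and to between 1.83 and 3.26 elsewhere, with 4 to 7 at 0, among them CD3E and TYROBP in all 8. The 16 neural markers summed to 482 and 513 CPM in sgEED-Mes, with NES the highest, 244 and 274 in sgEED-Epi, and 78.4 to 128 in the sgKMT2D libraries. The 16 muscle markers summed to 36.8 to 50.4 CPM with sgEED and 7.61 to 10.2 with sgKMT2D, of which TNNT1 was the highest, and MYOD1, MYOG, MYF5 and MYH2 were at 0 in all 8. A part of other cells in the interactions was not tested.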

How the data were processed

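Total RNA of 16 libraries (8 groups of 2) was sequenced, and the deposited files hold raw counts per gene, made by the authors by alignment to GRCh38 with STAR 2.7.1a and counting with featureCounts, per the submitters' processing notes. Which annotation release was used, and whether strand or reads mapping to several places were counted, is not given in the sources used here, so overlapping, antisense and near-identical genes may share reads. Names and coordinates came from GENCODE 29, which held 56868 of 60448 genes (94.1%). Genes without a GENCODE 29 entry took at most 0.0463% of a library's counts. Total counts of the 8 compared libraries are given with the results.

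Genes were kept by filterByExpr (18285 genes, 30.2% of those in the files), scaled by TMM and fitted in R 4.3.3 with edgeR 4.0.16 (robust quasi-likelihood), with 1 mean per group over 16 libraries and 8 residual degrees of freedom. The interaction, both transitions and the differences between the guides in each state were contrasts of this fit, with Benjamini-Hochberg adjustment over all genes at 0.05. The procedure was tested on simulated data. Genes were named by rule at 5 CPM or more. The rule took 10 opposite genes per direction by the smaller of the 2 changes and 5 per other class by the interaction. It also took up to 4 called members per list at 1 CPM or more, and a set of target and state genes, 180 genes in all. Another 23 genes were chosen after their values were seen: SNHG14, ACTA2, BUB1, CDK1, DCN, FBLN1, GATA6, ID3, IFIT1, INHBA, IRF7, LDHA, MKI67, MX1, ROR2, SFRP1, SMAD7, SMTN, SOX9, SPP1, TGFA, TNC and VCAN. The comparison, the gene lists and the motifs were chosen with earlier results of these data known. Promoter sequences came from RefSeq (GRCh38.p14). Alternatives were another scaling (RLE), no filter on low counts, DESeq2 1.42.0, only the 8 compared libraries, a replicate block, offsets for GC content and length, and leaving out each library. Figures were drawn with matplotlib 3.10.9 in Python 3.11.15.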

Additional observations from a re-analysis of the deposited data

Results flagged for a closer look

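The 2 transitions went in opposite directions in 392 genes, with each transition and the difference between them called: 194 rose with sgEED and fell with sgKMT2D, and 198 fell with sgEED and rose with sgKMT2D. Their interactions, on the log2 scale, are given here for the 44 of these genes that are named. Genes that rose with sgEED had interactions from 1.09 to 8.94: SNHG14 (8.94), WNT5A (8.77), EDIL3 (8.68), DPYSL4 (8.61), PDE1C (7.76), ACTBL2 (7.19), MMP13 (7.04), TGFBI (6.94), DCLK1 (5.60), SNAI1 (5.33), ID2 (5.32), GNAO1 (5.20), PLPP4 (4.87), HOXA13 (4.53), COL5A1 (3.97), IGF2 (3.95), KRT8 (3.60), TNC (2.67), CDKN2B (2.52), CCNE2 (2.04), PDK1 (1.69), SMAD7 (1.52) and HRAS (1.09). Genes that fell with sgEED had interactions from -19.17 to -2.06: SOX9 (-2.06), ATF3 (-2.44), TM7SF2 (-2.71), ROBO4 (-2.77), HES1 (-3.27), SEMA3B (-3.64), TFPI2 (-4.15), FGF5 (-4.43), SLIT2 (-4.75), FOXA1 (-4.77), OAS1 (-5.36), PCDHGA3 (-5.99), TRIML2 (-6.80), GUCY1A1 (-7.23), C2CD4A (-7.48), ITGA4 (-9.03), ANKRD22 (-9.92), SCN2B (-10.76), DAPK1 (-10.87), FBXL7 (-15.34) and EPDR1 (-19.17). The values of EPDR1 and FBXL7, each at 0 in both libraries of 1 group, depend on the prior count of the fit and are no bound. Values of other genes near 0 in a group also moved over the 15 alternatives. DAPK1 ranged from -14.49 to -10.01, ITGA4 from -12.67 to -7.99, SCN2B from -14.4 to -9.71 and PDE1C from 6.84 to 11.03. Of the 44, ATF3 lost its call in 5 of 15 alternatives (adjusted p up to 0.0815) and PDK1 in 4 (up to 0.0697), each of them with 1 library left out, and the others kept it in all 15. With 2 libraries in each group no library could be tested as standing apart from the others of its group.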

How the results depend on the processing

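The 3674 called interactions numbered 3533 to 4744 with another scaling, no filter, DESeq2, the 8 libraries alone, the block or the offsets for GC content and length, and these kept at least 61.6% of the main calls under every alternative, the 8 left-out libraries included. Offsets for GC content and length moved the calls lower in sgEED-Epi than in sgKMT2D-Epi from 843 to 2479 (2453 with the block too), those lower in sgEED-Mes than in sgKMT2D-Mes from 2455 to 4043 (4005), and the genes that moved the same way by unequal amounts from 1024 to 1608 (1581). With no filter 1531 genes were lower in sgEED-Epi. The cause was not tested.

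Leaving out 1 library gave 1051 to 1941 genes higher and 1242 to 2177 lower in the interaction. It gave 130 to 211 genes that rose with sgEED and fell with sgKMT2D, 119 to 235 that did the reverse, 667 to 862 that moved the same way and 1342 to 2725 with 1 transition called. Between the epithelial groups it gave 1217 to 2349 higher and 338 to 1329 lower, and between the mesenchymal groups 2030 to 3244 and 1455 to 2503. Of 203 named genes 153 kept their direction and their side of the threshold in all 15 alternatives, and 44 of 194 called ones lost the call in at least 1. KMT2C, not called, ranged from -0.19 (without sgEED-Epi replicate 2, its sign reversed) to 0.92 with 1 library left out, and CD44, not called, from -0.32 to 0.05 (without sgEED-Mes replicate 1, its sign reversed).

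Deviations of same-numbered libraries correlated with r of 0.366 between the epithelial groups and 0.223 between the mesenchymal groups. Between the states r was 0.086 within sgEED and -0.24 within sgKMT2D. It was -0.314 between sgEED-Epi and sgKMT2D-Mes and -0.493 between sgEED-Mes and sgKMT2D-Epi. Replicate numbers thus did not pair all groups alike. With the replicate block there were 3533 calls, 375 of them opposite. With the 8 compared libraries alone, so that no other group entered the spread, there were 4565 calls, 489 of them opposite. With 2 libraries per group, a gene that was not called is not shown to be equal between the transitions.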
